A study of Mus musculus with 33 samples.

Results

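The response of wild-type (WT) frontal cortex to 6 hr of sleep deprivation was measured as transcript abundance by RNA-seq, in 13 of the 33 libraries of the series. They comprised 6 libraries from control sleep (CS) and 7 from sleep deprivation (SD), all from adult male C57BL/6J mice with no engineered allele. CS mice were free to sleep, and SD mice were kept awake by a slowly moving treadmill under a false-bottomed cage to which they had been accustomed, and both were sampled at the same time of day, 6 hr after the projected time of lights on, in constant darkness. A gene was included when its read counts scaled to a total of 1000000 (CPM) were at least 1 in all replicates of either group, which took 12913 of the 21565 genes listed. The same comparison in 4 CS and 3 SD libraries from adult male Mef2c f/f mice was used to see where the WT response differed. The Mef2c gene of these mice carries loxP sites around an exon, and they have no Cre. Their line was backcrossed to the C57BL/6J background, and the paper allows that incomplete congenicity may still alter expression. The labels number the libraries but do not say which animal each came from, so p-values measure the spread between these libraries.

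Keeping an animal awake through its usual rest period prolongs neuronal firing, raises circulating glucocorticoid and increases the demand on protein synthesis and energy supply. In cortical neurons, firing induces immediate early genes such as Fos and Arc within minutes, and these are followed by slower feedback regulators that switch the same signals off. Chaperones of the endoplasmic reticulum (ER) are among the transcripts long known to rise in the waking cortex. The GC content of a transcript also affects how efficiently it is amplified and sequenced, and intron-rich genes with a long genomic span tend to encode synaptic and adhesion proteins, so both features were followed together with the gene groups.

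Total reads ranged from 44395583 to 218548740 in the CS libraries and from 57394212 to 145658838 in the SD libraries, so 3 reads corresponded to at most 0.0676 CPM and depth did not limit the genes tested. The listed genes summed to between 938651 and 985958 CPM in the WT CS and SD libraries but to 1000000 in each Mef2c f/f library, so the values of the 2 genotypes were not scaled to totals of the same kind. CPM values were therefore rescaled by median-of-ratios factors, and all levels below are rescaled CPM. CS replicate 2 stood apart from the other WT libraries. It lay farthest out on the first principal component and departed most from the mean of these libraries in its trend on GC content. The main counts below are therefore given with and without it. Markers of excitatory neurons, the main cell type of the tissue, were detected in every library at a similar summed level, with 2313 to 2567 CPM in CS and 2349 to 2773 CPM in SD.

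The response to SD was broad and mostly moderate in size. Without correction, 5826 of 12913 genes (45.1%) were differentially expressed genes (DEGs; limma, with a p-value of 0.05 or less after Benjamini-Hochberg adjustment and a change of 0.3 or more in either direction on the log2 scale), with 3183 higher (24.6%) and 2643 lower (20.5%) in SD. Of these DEGs, 3721 (63.9%) changed by 0.3 to 0.6 on the log2 scale, 1759 (30.2%) by 0.6 to 1 and 346 (5.94%) by more than 1. The central 90% of log2 fold changes lay between -0.63 and 0.79, with a median of 0.04. The standard error of a gene's log2 fold change had a median of 0.124, below the 0.3 required for a call, and another 767 genes passed the adjusted p with a smaller fold. CS and SD libraries did not overlap at all for 1949 genes (15.1%). Without CS replicate 2 the number of DEGs was 4509.

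The direction of change followed the GC content of the transcript. In the 20% of genes with the lowest GC content, 34 genes rose and 1374 fell, with a median log2 fold change of -0.37. In the 20% with the highest GC content, 1602 rose and 16 fell, with a median of 0.49. The 3 groups between them had medians of -0.17, 0.04 and 0.25, so the median moved in the same direction at every step. Across the 12443 genes with an annotated transcript, the Spearman correlation of log2 fold change with GC content was 0.72 in WT. In Mef2c f/f mice it was -0.30 across the 12387 such genes tested there. Both are descriptions over genes, which are not independent replicates.

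**Figure D1:**
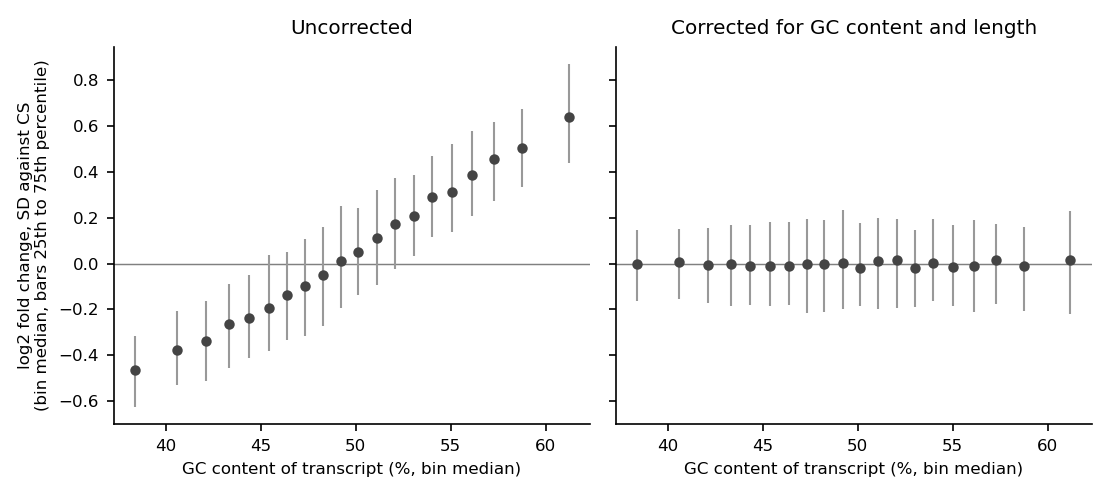
Median log2 fold change of SD against CS (points, with bars from the 25th to the 75th percentile) in 20 bins of genes ordered by the GC content of the transcript (x axis, percent). Without correction (left) the bin medians climb from -0.46 to 0.64, and after correction for GC content and transcript length (right) they stay near 0.

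The trend was present library by library. The slope on GC content, in log2 units per 10% GC, was that of each library's deviations from the gene means over the 13 libraries. It is therefore relative to that set. The slope had a lowest value of -0.852, a median of -0.185 and a highest value of -0.0228 in CS. In SD the lowest slope was 0.0389, the median was 0.257 and the highest was 0.372. Every SD slope lay above every CS slope, so the groups did not overlap. Their signs depend on the libraries averaged, and without CS replicate 2 the SD slopes ranged from -0.0321 to 0.301. The mean was -0.269 ± 0.317 (SD, n = 6) in CS and 0.230 ± 0.113 (SD, n = 7) in SD, a difference of 0.499 with an exact two-sided permutation p of 0.000583, the smallest these group sizes can give. Without CS replicate 2 the difference was 0.382 (exact permutation p = 0.00126). Mef2c f/f slopes were taken from the gene means of their own libraries, so their level cannot be set against that of WT. In Mef2c f/f mice the slopes of the sleep conditions overlapped, with a difference of -0.0885 (exact two-sided permutation p = 0.457 over 35 splits, n = 4 and 3). Since the slope separated the WT groups completely, the trend and the sleep condition cannot be told apart in these libraries.

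**Figure D2:**
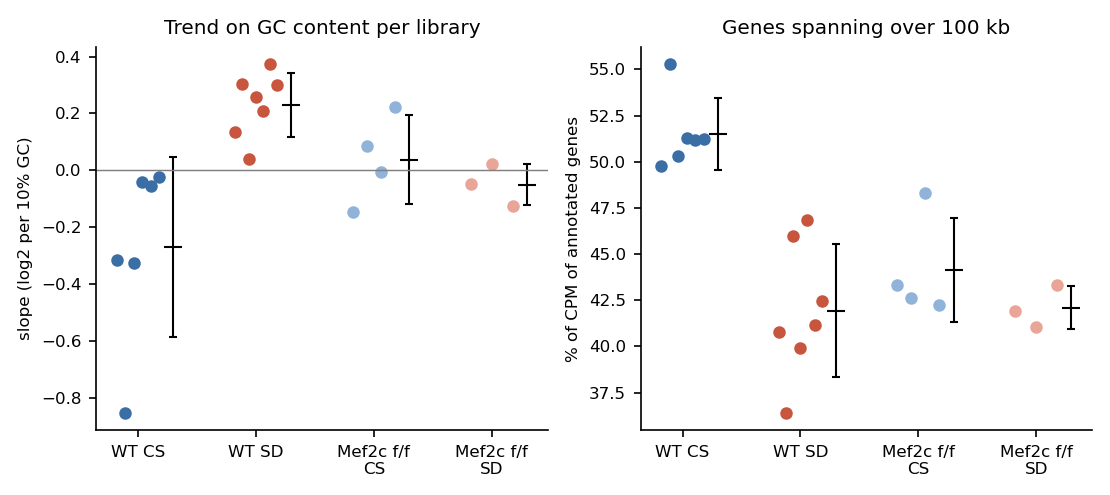
Left, slope on GC content of each library's log2 deviations from the gene means of its own genotype (y axis, log2 per 10% GC). Right, percent of CPM held by genes spanning over 100 kb. Points are libraries of WT and Mef2c f/f mice in CS and SD, and bars give the mean ± SD. WT CS and SD libraries do not overlap in either panel, and CS replicate 2 is the lowest point on the left and the highest on the right.

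The trend of each library on GC content and transcript length was then removed and the comparison repeated. With the correction, 2550 of 12443 genes (20.5%) were DEGs, with 1157 higher (9.3%) and 1393 lower (11.2%), against 1909 in all without CS replicate 2. Of the 2550 DEGs, 1904 (74.7%) changed by 0.3 to 0.6, 529 (20.7%) by 0.6 to 1 and 117 (4.59%) by more than 1 on the log2 scale. The SD of log2 fold changes over genes went from 0.46 to 0.32, and the median standard error from 0.124 to 0.0989. Among the 20% of genes with the lowest GC content 210 rose and 238 fell, and among the 20% with the highest 206 rose and 274 fell. CS and SD libraries did not overlap for 1067 genes (8.58%), of which 867 were DEGs (6.97% of those tested).

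Comparing the calls gene by gene, 1686 genes were DEGs in the same direction in both fits, 3888 in the uncorrected fit alone, 847 in the corrected fit alone and 17 in opposite directions. Genes called without the correction alone lay at the extremes of GC content, with a median of 56.6% for the 2266 that rose and 42.0% for the 1622 that fell. The 810 genes that rose in both fits had a median genomic span of 12.8 kb, and the 876 that fell in both had a median span of 156 kb. In corrected values of Mef2c f/f mice, the change had the sign of the WT corrected change for 66.6% of genes called in both WT fits, for 65.6% of those called in the corrected fit alone, for 53.3% of those called in the uncorrected fit alone and for 58.2% of all genes. The WT and Mef2c f/f libraries share no sample, and the shares are descriptions over genes.

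The 17 genes with opposite calls rose before the correction and fell after it, and their median GC content was 62.3%. Rps15, a ribosomal protein of the small subunit, ranged from 59.0 to 197 CPM in CS with a median of 134, and from 131 to 319 CPM in SD with a median of 222. These ranges overlapped. Its log2 fold change was 0.70 ± 0.26 (SE; adjusted p = 0.0371) uncorrected and -0.41 ± 0.09 (SE; adjusted p = 0.00743) corrected. Cacng8, an auxiliary subunit of AMPA receptors, went from 0.36 to -0.43, and Dctpp1, which hydrolyses modified dCTP, from 0.47 to -0.38. The direction for these genes depends on the correction, and for Rps15 on its form, with corrected values of 0.0012 for GC content alone and 0.020 with no filter on low values, as it does for Cacng8, with 0.16 for transcript length alone. Their uncorrected calls were also lost when CS replicate 2 was left out, with values of 0.48 for Rps15, 0.25 for Cacng8 and 0.36 for Dctpp1.

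Other genes became DEGs with the correction alone. Arhgap44, a GTPase-activating protein of dendritic spines, ranged from 162 to 226 CPM in CS and from 151 to 191 CPM in SD, and these ranges overlapped. Its log2 fold change was -0.19 ± 0.09 (SE; adjusted p = 0.0909) uncorrected and -0.55 ± 0.07 (SE; adjusted p = 0.00023) corrected, and its corrected values did not overlap. Frmpd3, a PDZ-domain protein, fell by 0.47 with the correction (0.010 with mean GC content over all transcripts) and Plekho1, a pleckstrin-homology domain protein, fell by 0.58. In the other direction, Mat2a, which makes the methyl donor S-adenosylmethionine, rose by 0.52, Sla, a Src-like adaptor, rose by 0.55, and Pnrc2, a partner of nuclear receptors and mRNA decay, rose by 0.39 (-0.11 with length alone), all without overlap in corrected values.

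Genomic span remained associated with the response after the correction, which used transcript length but not span. The Spearman correlation of log2 fold change with span was -0.56 uncorrected and -0.34 corrected over 12443 genes. The 20% of genes with the longest span (over 87.7 kb) had a median log2 fold change of -0.34 uncorrected and -0.18 corrected, and in the corrected fit 58 of them rose and 731 fell. Of the 20% with the shortest span 385 rose and 163 fell in the corrected fit, with a median of 0.09. When genes were divided into 3 groups by GC content and each into 3 by span, the order by span was the same in every GC group. Corrected medians went from 0.11 for short to -0.14 for long genes at low GC, from 0.13 to -0.16 at middle GC, and from 0.05 to -0.07 at high GC.

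**Figure D3:**
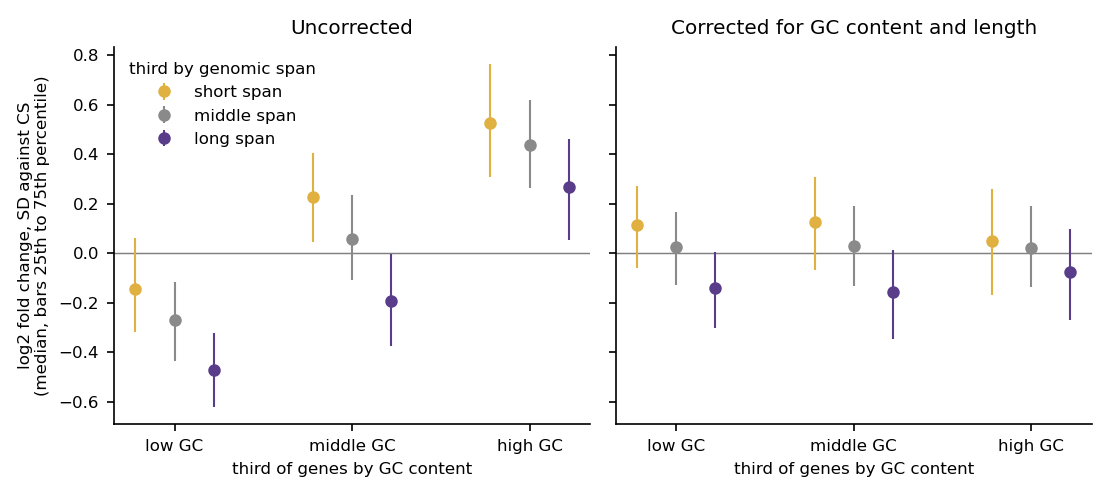
Median log2 fold change of SD against CS (points, with bars from the 25th to the 75th percentile) for genes in 3 groups by GC content (x axis), each divided into 3 by genomic span (colours), without correction (left) and with it (right). In all 3 GC groups the long-span genes lie lowest, down to -0.47 uncorrected and -0.16 corrected.

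Genes spanning over 100 kb held a smaller share of the reads after SD. Their share of CPM had a lowest value of 49.8%, a median of 51.2% and a highest value of 55.3% in WT CS, and of 36.4%, 41.2% and 46.9% in WT SD. The groups did not overlap, and every SD library lay below every CS library. In Mef2c f/f mice the same share was 42.3% to 48.3% in CS and 41.1% to 43.3% in SD, and those ranges overlapped. Of 2165 such genes tested, 79 rose and 1139 fell uncorrected (median -0.35), 42 rose and 685 fell corrected (median -0.20), and 45 rose and 600 fell with the correction but without CS replicate 2. Adding span to the correction left 158 higher and 177 lower with a median of 0.00, as that correction is built to do. Of the 1686 genes of any span called in both fits, 918 kept their call and direction with span added, 505 higher and 413 lower. In corrected Mef2c f/f values, 1502 of 2158 long genes lay below 0 with a median of -0.08.

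A total of 574 genes were DEGs in both fits, in the same direction, with CS and SD libraries not overlapping in either, 141 of them higher and 433 lower. Those with the strongest corrected statistics included Vim, an intermediate filament protein of astrocytes, endothelium and fibroblasts (chr2:13573927-13582826). Vim had 9.69 CPM in the lowest, 10.7 in the median and 13.8 in the highest CS library, against 19.4, 22.8 and 27.4 CPM in SD. Every SD library exceeded every CS library, and the log2 fold change was 1.02 ± 0.10 (SE; adjusted p = 0.000207) uncorrected and 1.12 ± 0.10 (SE; adjusted p = 5.52e-05) corrected. Cbs, cystathionine beta-synthase of the transsulfuration pathway, went from 7.22 to 10.4 CPM in CS, with a median of 8.40, to 15.0 to 17.0 CPM in SD, with a median of 16.0. It rose by 0.86 uncorrected and 0.89 corrected on the log2 scale. Ptpn14, a tyrosine phosphatase that restrains YAP, rose by 0.85 and 0.83.

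Among the 574, the strongest corrected decrease was that of C7, a terminal complement component, with 2.77 to 4.52 CPM in CS and 0.761 to 1.34 CPM in SD, which fell by 1.35 and 1.28. Mfsd4, a glucose transporter-like protein of moderate span, had 63.6 to 74.6 CPM in CS and 46.1 to 52.7 CPM in SD, and fell by 0.50 and 0.67. The next were genes of long span. Nav3, a neuronal microtubule-binding navigator protein, spans chr10:109681259-110456204 and had 1906 to 2970 CPM in CS, with a median of 2206, and 852 to 1378 CPM in SD, with a median of 1000.02. The groups did not overlap, and Nav3 fell by 1.09 uncorrected and by 0.90 corrected. Pak7, a p21-activated kinase of neurons, fell by 1.18 and 0.93, and Etl4, the sickle tail gene, fell by 0.99 and 0.86.

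Of the 574 genes, 170 were moderate, with an uncorrected change of 0.3 to 0.6. Among these, Bach1, a repressor of antioxidant genes that binds heme, ranged from 12.5 to 14.4 CPM in CS, with a median of 13.8, and from 15.6 to 20.03 CPM in SD, with a median of 16.4. No SD library fell into the CS range. Bach1 rose by 0.30 ± 0.08 (SE; adjusted p = 0.00906) uncorrected and 0.47 ± 0.08 (SE; adjusted p = 0.00109) corrected, and its uncorrected call was lost without SD replicate 9, the highest library (0.26). Perp, a p53 target of cell junctions, rose by 0.48 and 0.49, Tle3, a Groucho-family corepressor, by 0.59 and 0.49, and Smim3, a small membrane protein, by 0.55 and 0.61. Among decreases of this size, Opn3, a non-visual opsin, fell by 0.56 and 0.88, Slc24a3, a potassium-dependent sodium/calcium exchanger, by 0.41 and 0.67, and Phka2, a regulatory subunit of phosphorylase kinase, by 0.44 and 0.53.

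Genes with the most reads that were called in both fits were taken in equal number from each direction. In the 20% of genes with the highest mean CPM, 289 rose and 1079 fell uncorrected, and 103 rose and 495 fell corrected. Ptprd, a receptor phosphatase that organises synapses (chr4:75941238-78211961), ranged from 6434 to 12475 CPM in CS, with a median of 7919, and from 3277 to 4906 CPM in SD, with a median of 3605. Every SD library was below every CS library. Ptprd fell by 1.104 ± 0.15 (SE; adjusted p = 0.000456) uncorrected and by 0.73 ± 0.09 (SE; adjusted p = 0.000235) corrected, but had 0.21 when quantile normalization preceded the correction. Kcnip4, an auxiliary subunit of A-type potassium channels, fell by 1.20 and 0.86 and likewise had 0.21 under that combination. Enc1, an actin-binding protein of neurons, had 290 to 353 CPM in CS and 386 to 587 CPM in SD, and rose by 0.49 and 0.42. Cct7, a subunit of the cytosolic chaperonin, rose by 0.47 and 0.65, Mdh2, malate dehydrogenase of mitochondria, by 0.56 and 0.38 (corrected value 0.29 and not called without CS replicate 2), and Klf13, a Kruppel-like transcription factor, by 0.71 and 0.45.

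**Figure D4:**
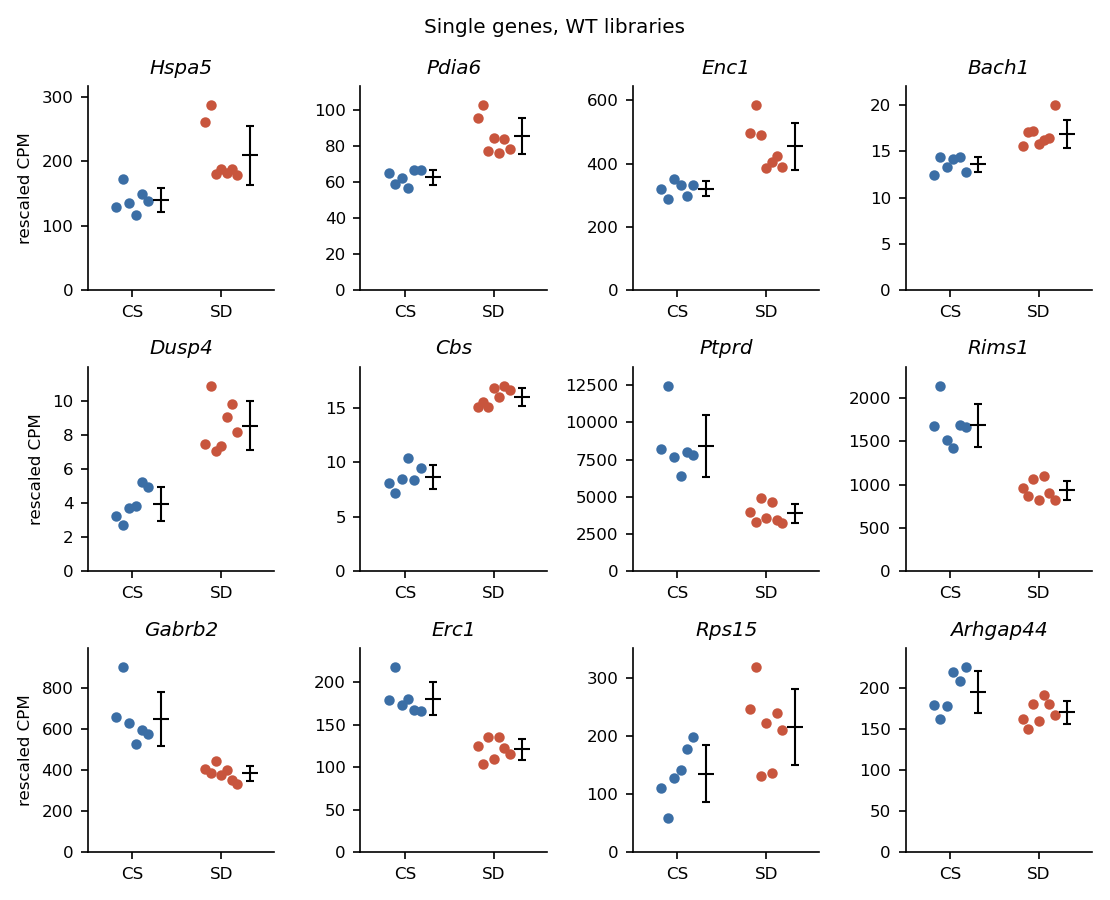
Rescaled CPM (y axis, from 0) in each WT library for 12 genes, with mean ± SD beside each group. CS and SD points are apart in every panel except Rps15, where 131 to 319 CPM in SD overlaps 59.0 to 197 CPM in CS, and Arhgap44, where 151 to 191 CPM overlaps 162 to 226 CPM.

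Among genes induced by neuronal activity, most immediate early transcription factors rose without the correction and a minority with it. Of 19 immediate early transcription factors tested, 12 rose and 1 fell uncorrected (median 0.49, against 0.04 over all genes), and 5 rose and 1 fell corrected (median 0.23, against -0.0035). Fosb, an AP-1 subunit that outlasts Fos, had 1.15, 2.46 and 3.50 CPM in the lowest, median and highest CS library and 3.83, 5.25 and 6.16 CPM in SD. No CS library reached the SD range, and Fosb rose by 1.06 ± 0.18 (SE; adjusted p = 0.000956) uncorrected and 0.68 ± 0.11 (SE; adjusted p = 0.000817) corrected. Junb rose by 2.12 and 1.42 and Jund, another AP-1 subunit, by 1.66 and 0.79. Egr1 and Fos were not called, with log2 fold changes of 0.0030 ± 0.16 and 0.49 ± 0.35 (SE) uncorrected. Nr4a2, an orphan nuclear receptor, was the member that fell, by 0.68 and 0.64. In Mef2c f/f mice the median corrected change of the list was 0.53.

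Of 20 activity-regulated effectors, 9 rose and none fell uncorrected (median 0.31), and 7 rose and 1 fell corrected (median 0.27). The share called was 45% uncorrected, as over all genes (45.1%), and 40% corrected, against 20.5%. Arc, which governs AMPA receptor endocytosis, had 18.3 to 54.6 CPM in CS, with a median of 32.5, and 58.8 to 94.9 CPM in SD, with a median of 83.2. Arc rose by 1.18 in the uncorrected fit, where the groups did not overlap, and by 0.65 in the corrected fit, where they did. Vgf, a secreted neuropeptide precursor, rose by 1.70 and 0.98, whereas Bdnf had -0.07 and 0.28 and was not called. Plk3, a Polo-like kinase, fell by 0.52 in the corrected fit.

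Of 15 phosphatases and Sprouty proteins that damp MAP kinase signalling, 7 rose and 1 fell uncorrected (median 0.21), and 4 rose and 1 fell corrected (median 0.11). This was 53.3% and 33.3% called, against 45.1% and 20.5% over all genes. The 4 that rose corrected were Dusp4, Dusp5, Spry2 and Spry4. Dusp4, a nuclear phosphatase of ERK, had 2.72, 3.77 and 5.26 CPM in the lowest, median and highest CS library and 7.06, 8.21 and 10.9 CPM in SD, without overlap. It rose by 1.04 ± 0.15 (SE; adjusted p = 0.000483) and by 0.65 ± 0.11 (SE; adjusted p = 0.000972) with the correction. Spry4 rose by 0.80 and 0.72, and Spry2 by 0.56 and 0.66. Dusp7 fell by 0.48 in the corrected fit.

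In the list of ER chaperones and unfolded protein response genes, Hspa5, Pdia6, Hyou1, Manf, Sdf2l1 and Atf4 rose in both fits. Of 27 genes tested, 11 rose and 3 fell uncorrected (51.9% called, median 0.20). With the correction 7 of 26 rose and none fell (26.9% called, median 0.15), against 45.1% and 20.5% called over all genes. The median corrected change in Mef2c f/f mice was 0.27. In the unfolded protein response, a nuclear complex that includes ATF6 binds the ER stress element, the letters CCAAT and CCACG separated by 9 bases, in the promoters of chaperone genes. Promoters of 300 bases around the RefSeq start site, mostly upstream (assembly GRCm38.p6), were searched on both strands for these letters. They were found for 37 of 27025 genes (0.137%), 15 of them tested here. Of the 15, 7 rose and 1 fell uncorrected and 3 rose and 1 fell corrected, with medians of 0.13 and 0.15. Over all genes 45.1% were called uncorrected and 20.5% corrected. The 15 include the 7 members of the ER list that held the element, and whether the element goes with the response was not tested. Of 21 genes of the ER list with a promoter in the table, 7 held the element. The promoters of 4 of these are shown, of which the first 2 genes rose in both fits and the other 2 were called in neither. The capitals mark CCAAT and CCACG, or CGTGG and ATTGG where the element lies on the other strand.
Hspa5 (chr2:34771840-34772139, plus strand): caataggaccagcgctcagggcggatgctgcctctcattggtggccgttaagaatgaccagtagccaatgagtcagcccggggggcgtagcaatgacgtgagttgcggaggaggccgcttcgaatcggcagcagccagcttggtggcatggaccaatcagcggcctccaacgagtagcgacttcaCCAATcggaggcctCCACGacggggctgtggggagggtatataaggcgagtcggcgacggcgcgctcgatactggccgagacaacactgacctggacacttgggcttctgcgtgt
Pdia6 (chr12:17266339-17266638, plus strand): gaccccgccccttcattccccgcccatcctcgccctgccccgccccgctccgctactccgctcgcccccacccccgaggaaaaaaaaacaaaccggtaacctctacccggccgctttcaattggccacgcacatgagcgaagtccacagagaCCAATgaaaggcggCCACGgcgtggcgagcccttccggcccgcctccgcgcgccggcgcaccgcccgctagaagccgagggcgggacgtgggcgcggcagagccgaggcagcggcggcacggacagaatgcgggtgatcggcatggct
Hsp90b1 (chr10:86705395-86705694, minus strand): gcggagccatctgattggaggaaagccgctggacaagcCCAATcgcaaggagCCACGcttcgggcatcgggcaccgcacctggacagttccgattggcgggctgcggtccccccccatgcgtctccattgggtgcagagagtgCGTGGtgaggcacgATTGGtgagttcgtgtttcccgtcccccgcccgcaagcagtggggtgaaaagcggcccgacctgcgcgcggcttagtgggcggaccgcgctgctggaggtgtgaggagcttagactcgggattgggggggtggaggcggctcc
Canx (chr11:50325624-50325923, minus strand): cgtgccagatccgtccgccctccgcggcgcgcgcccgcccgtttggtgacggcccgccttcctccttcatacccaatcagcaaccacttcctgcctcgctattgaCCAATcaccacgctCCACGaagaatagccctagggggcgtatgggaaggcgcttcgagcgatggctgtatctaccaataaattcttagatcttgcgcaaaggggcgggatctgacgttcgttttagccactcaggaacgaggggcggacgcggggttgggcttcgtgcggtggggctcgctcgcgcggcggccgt

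Hspa5 encodes BiP, the main HSP70 chaperone of the ER lumen. It had 117, 137 and 172 CPM in the lowest, median and highest CS library and 178, 187 and 288 CPM in SD. All SD libraries exceeded all CS libraries, and Hspa5 rose by 0.56 ± 0.13 (SE; adjusted p = 0.00494) uncorrected and 0.70 ± 0.12 (SE; adjusted p = 0.00122) corrected. Pdia6, a protein disulphide isomerase, had 56.7 to 66.9 CPM in CS and 75.9 to 103 CPM in SD, and rose by 0.44 and 0.42. Hsp90b1, the HSP90 of the ER, whose promoter holds the element 2 times, was not called, with -0.27 ± 0.24 (SE) and 0.00 ± 0.18 (SE). Canx, the membrane lectin chaperone calnexin, had -0.10 and 0.20 and was not called. Of the other list members with the element, Calr and Creld2 rose by 0.38 and 0.57 uncorrected and had 0.30 and 0.15 corrected, and Dnajc3 had -0.19 and 0.10. Among members for which the table gave no promoter or none with the element, the ER chaperone Hyou1 rose by 0.53 and 0.39, Sdf2l1 by 1.20 and 0.62, and Atf4, a translationally controlled stress factor, by 0.92 and 0.54. The sensor Atf6 fell by 0.38 uncorrected and had -0.14 corrected.

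Cytosolic heat shock proteins changed in both directions. Of 25 tested, 9 rose and 4 fell uncorrected (median 0.12), and 6 rose and 1 fell corrected (median 0.09). With 52% and 28% called, the list was near the 45.1% and 20.5% over all genes. Hspb8, a small heat shock protein of selective autophagy, had 2.83 to 6.40 CPM in CS and 7.43 to 13.0 CPM in SD, without overlap, and rose by 0.98 and 0.72. The inducible HSP70 gene Hspa1b rose by 1.75 and 1.26, but shares most of its sequence with Hspa1a, so reads of the pair may be split or lost. Cryab, the lens chaperone that is also made by glia, fell by 0.61 in the corrected fit.

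Most targets of the glucocorticoid receptor rose without the correction, and a minority rose with it. Of 17 tested, 10 rose and 1 fell uncorrected (median 0.57), and 6 rose and none fell corrected (median 0.20), with a median corrected change of 0.40 in Mef2c f/f mice. Fkbp5, the receptor's own inhibitory co-chaperone, had 20.2, 23.1 and 27.0 CPM in the lowest, median and highest CS library and 34.5, 37.7 and 43.9 CPM in SD. The groups did not overlap, and Fkbp5 rose by 0.72 ± 0.10 (SE; adjusted p = 0.000419) uncorrected and 0.58 ± 0.09 (SE; adjusted p = 0.000712) corrected. Ddit4, an inhibitor of mTORC1, rose by 1.65 and 1.14 and had 2.45 to 6.38 CPM in CS against 8.87 to 23.2 CPM in SD. Tsc22d3 rose by 0.48 and 0.50, and Cdkn1a by 0.95 and 0.64. The receptor gene Nr3c1 was the member that fell, by 0.59 uncorrected, and had -0.22 corrected.

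Ribosomal protein genes went from 61.25% to 31.25% called with the correction, beside 45.1% and 20.5% over all genes. Of 80 ribosomal protein genes, 49 rose and none fell uncorrected (median 0.59), and 21 rose and 4 fell corrected (median 0.27). Without CS replicate 2 these counts were 38 and none, and 14 and 4. Rps16 had 6.08 to 17.7 CPM in CS, with a median of 13.2, and 20.2 to 40.8 CPM in SD, with a median of 32.9, without overlap, and rose by 1.21 and 0.96. Rpl4 and Rpl14 fell by 0.40 and 0.41 in the corrected fit. Ribosomal protein genes have many processed copies in the genome, and counts of uniquely mapped reads can therefore be incomplete for them. In Mef2c f/f mice the median corrected change was 0.01. Of 59 translation factors, 16 rose and 6 fell uncorrected (37.3% called), and 9 rose and 2 fell corrected (18.6%), both below the shares over all genes. Among 20 cytosolic tRNA synthetases 5 rose uncorrected (25% called) and 1, Farsa, rose corrected (5% called), again below those shares. Of 43 proteasome genes, 16 rose and 3 fell uncorrected (44.2% called), and 9 rose and 3 fell corrected (27.9% called).

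Of 78 nuclear genes of the respiratory chain, 49 rose and 3 fell uncorrected (median 0.52). Of the 77 tested with the correction, 19 rose and 6 fell (median 0.21), and without CS replicate 2 the counts were 32 and 1 uncorrected and 16 and 2 corrected. Cox5a, a subunit of cytochrome c oxidase, had 22.6, 34.6 and 56.9 CPM in the lowest, median and highest CS library and 46.8, 64.2 and 127 CPM in SD, and these ranges overlapped. It rose by 1.02 ± 0.22 (SE; adjusted p = 0.004) uncorrected and by 1.28 ± 0.24 (SE; adjusted p = 0.00254) corrected. Cox7b2 fell by 1.003 and 1.02. The median corrected change in Mef2c f/f mice was -0.01. In the tricarboxylic acid cycle 5 of 30 genes rose and 2 fell uncorrected (23.3% called), and 4 rose corrected (13.3% called). Both shares lay below the 45.1% and 20.5% over all genes.

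Of 28 genes of glycolysis, lactate and glycogen, 14 rose and 2 fell uncorrected (57.1% called, median 0.36). With the correction 4 of 27 rose (14.8% called, median 0.12). Over all genes 45.1% and 20.5% were called. Slc2a1, the glucose transporter of endothelium and glia, had 33.1 to 47.1 CPM in CS and 51.9 to 67.5 CPM in SD, and rose by 0.56 uncorrected, with 0.28 corrected. Hk2, an inducible hexokinase, rose by 0.47 and 0.38, and Slc2a3, the neuronal glucose transporter, by 0.46 and 0.61. The monocarboxylate transporter gene Slc16a7 fell by 0.76 uncorrected and had -0.16 corrected. Of 25 antioxidant enzymes 7 rose uncorrected (28% called) and 4 rose corrected (16% called), with Sod1, the cytosolic superoxide dismutase, at 0.65 and 0.72. In cholesterol synthesis 3 of 23 genes rose and 3 fell uncorrected (26.1% called), and 2, Mvd and Pmvk, fell corrected (8.7% called). The antioxidant and cholesterol lists lay below the shares over all genes in both fits.

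Clock genes moved in both directions. Of 16 activators and repressors, 3 rose and 5 fell uncorrected, and 2 rose and 3 fell corrected. That made 50% and 31.25% called, against 45.1% and 20.5% over all genes. Per2, a repressor, had 17.4, 24.5 and 27.1 CPM in the lowest, median and highest CS library and 30.1, 36.6 and 38.1 CPM in SD, without overlap, and rose by 0.57 ± 0.10 (SE; adjusted p = 0.00134) and 0.36 ± 0.06 (SE; adjusted p = 0.00133). The activators Arntl and Npas2 fell by 0.34 and 0.42 uncorrected and by 0.31 and 0.58 corrected. Clock fell by 0.51 uncorrected and had -0.03 corrected. Of 7 output factors, 2 rose uncorrected and none passed corrected, where Tef, a PAR bZIP factor, had 0.23. Rbm3, a cold-inducible RNA-binding protein, fell by 0.45 uncorrected and had -0.16 corrected, and Cirbp, the other member of that pair, was called in neither fit.

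Most receptor genes of fast synapses fell without the correction, and a smaller number fell with it. Of 25 genes for ionotropic glutamate receptors and their auxiliary subunits, 3 rose and 13 fell uncorrected (median -0.44), and none rose and 10 fell corrected (median -0.29). Gria4, an AMPA receptor subunit, had 845 to 1747 CPM in CS, with a median of 982, and 476 to 624 CPM in SD, with a median of 569. These ranges were apart, and Gria4 fell by 0.93 and 0.67. Gria2, another AMPA receptor subunit, fell by 0.64 uncorrected and had -0.02 corrected. Of 12 GABA-A receptor subunits, 10 fell uncorrected (median -0.71) and 5 fell corrected (median -0.28), and none rose in either fit. Gabrb2 had 525 to 902 CPM in CS, with a median of 613, and 332 to 443 CPM in SD, with a median of 387, without overlap, and fell by 0.74 ± 0.11 (SE; adjusted p = 0.000717) and 0.52 ± 0.07 (SE; adjusted p = 0.000357). The corrected medians in Mef2c f/f mice were -0.10 and -0.06. With span added to the correction, 2 glutamate receptor genes fell, and of the GABA-A subunits 1 rose and 2 fell.

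Scaffolds and adhesion molecules of the postsynaptic side divided. Of 35 tested, 12 rose and 16 fell uncorrected (median -0.12, but 0.16 with CPM as deposited and 0.055 after quantile normalization), and 2 rose and 11 fell corrected (median -0.09, but 0.10 when quantile normalization preceded the correction). Dlgap1, a scaffold that joins PSD-95 to Shank proteins, had 1439 to 2002 CPM in CS and 797 to 1201 CPM in SD, without overlap, and fell by 0.72 and 0.71. Lrfn5, a leucine-rich adhesion protein, fell by 0.88 and 0.65. The 2 that rose in the corrected fit were Dlg4, which encodes PSD-95 itself, by 0.60, and Nrxn2 by 0.40. Nrxn3, a presynaptic adhesion partner that spans over 1000 kb, fell by 0.69 uncorrected and by 0.51 corrected, although after quantile normalization its value was 0.12, and 0.24 with the correction as well.

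Of 40 presynaptic genes, 4 rose and 10 fell uncorrected (35% called, median 0.06), and 1 rose and 8 fell corrected (22.5% called, median -0.06), against 45.1% and 20.5% of all genes. The active-zone organiser Rims1 had 1426, 1674 and 2143 CPM in the lowest, median and highest CS library and 822, 906 and 1095 CPM in SD, without overlap, and fell by 0.85 ± 0.11 (SE; adjusted p = 0.000388) uncorrected and 0.69 ± 0.08 (SE; adjusted p = 0.000208) corrected. Rims2 fell by 0.79 and 0.76, and Erc1, which binds RIM proteins at the active zone, by 0.58 and 0.52. Syt1, the calcium sensor of release, fell by 0.64 and 0.47, but had 0.18 when quantile normalization preceded the correction. Syp, an abundant vesicle protein, rose by 0.41 in the corrected fit.

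After the correction for GC content and length, ion channel and adhesion families had more members that fell than rose. Of 37 voltage-gated potassium channel genes, 9 rose and 11 fell uncorrected (median 0.07), and 2 rose and 11 fell corrected (median -0.20). Kcnc2, a fast delayed rectifier of fast-spiking cells, had 414 to 661 CPM in CS and 248 to 342 CPM in SD, without overlap, and fell by 0.74 and 0.55. Of 30 sodium, calcium and HCN channel genes, 8 rose and 9 fell uncorrected, and 2 rose and 6 fell corrected. Of 66 axon guidance genes, 20 rose and 20 fell uncorrected (median 0.28, but -0.17 among those with at least 5 CPM in every library), and 3 rose and 15 fell corrected (median -0.09, but 0.0090 with span in the correction and 0.25 when length alone was corrected). Slit2, a repellent ligand, had 163 to 332 CPM in CS and 87.3 to 111 CPM in SD, and fell by 0.998 and 0.70. Of 29 cadherins and protocadherins, 6 rose and 17 fell uncorrected (median -0.49), and 2, Cdh1 and Pcdh8, rose and 12 fell corrected (median -0.21). Cdh18 had 531 to 929 CPM in CS and 278 to 392 CPM in SD, without overlap, and fell by 0.98 and 0.91. With span added to the correction, the excess of falls remained for potassium channels, with none higher and 9 lower. For axon guidance genes the counts became 5 higher and 1 lower, and for cadherins and protocadherins 6 and 5. For sodium, calcium and HCN channels they were 2 and 3.

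Of 14 cortical neuropeptide genes, 6 rose uncorrected (median 0.32), and 5 rose and 2 fell corrected (median 0.17). The share called was 42.9% uncorrected, below the 45.1% over all genes, and 50% corrected, above the 20.5% over all genes. Pdyn, the precursor of dynorphin, had 9.32, 10.7 and 14.4 CPM in the lowest, median and highest CS library and 16.0, 18.9 and 28.1 CPM in SD. The ranges were apart, and Pdyn rose by 0.85 ± 0.16 (SE; adjusted p = 0.00167) and 0.67 ± 0.15 (SE; adjusted p = 0.00545). Cartpt, Crh, Nts and Pnoc also rose in both fits, while Npy and Tac2 fell by 0.76 and 0.56 in the corrected fit.

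Splicing factors were called no more often than all genes in either fit. Of 45 splicing factors, 2 rose and 11 fell uncorrected (28.9% called, median -0.15). With the correction 6 rose and 3 fell (20% called, median 0.07). Over all genes 45.1% and 20.5% were called. The median GC content of the list was 43.3%. Luc7l2, a component of U1 snRNP, had 359 to 578 CPM in CS and 223 to 307 CPM in SD, without overlap, and fell by 0.63 and 0.32. Srsf3 had 0.17 uncorrected and rose by 0.50 corrected. Of 16 histone genes, 12 rose uncorrected (median 0.85) and 7 rose corrected (median 0.52), none fell, and the median corrected change in Mef2c f/f mice was -0.01. H2afz, a replacement histone, rose by 0.74 and 0.58, and several members of the list are near-identical copies whose reads cannot be separated with certainty. Of 41 histone and DNA methylation enzymes, 7 rose and 11 fell uncorrected (median -0.16, but 0.12 with CPM as deposited), and none rose and 7 fell corrected (median -0.01), or 43.9% and 17.1% called, close to the shares over all genes. Setd5 and Mbd5, chromatin factors of neurodevelopment, fell by 0.56 and 0.74 uncorrected and by 0.51 and 0.47 corrected. Mef2c, the gene targeted elsewhere in the series and singled out after its values were seen, had 1085 to 2019 CPM in CS, with a median of 1345, and 682 to 970 CPM in SD, with a median of 817. Mef2c fell by 0.80 ± 0.13 (SE; adjusted p = 0.00109) uncorrected, where the groups did not overlap, and by 0.38 ± 0.08 (SE; adjusted p = 0.00527) corrected, where they did.

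**Figure D5:**
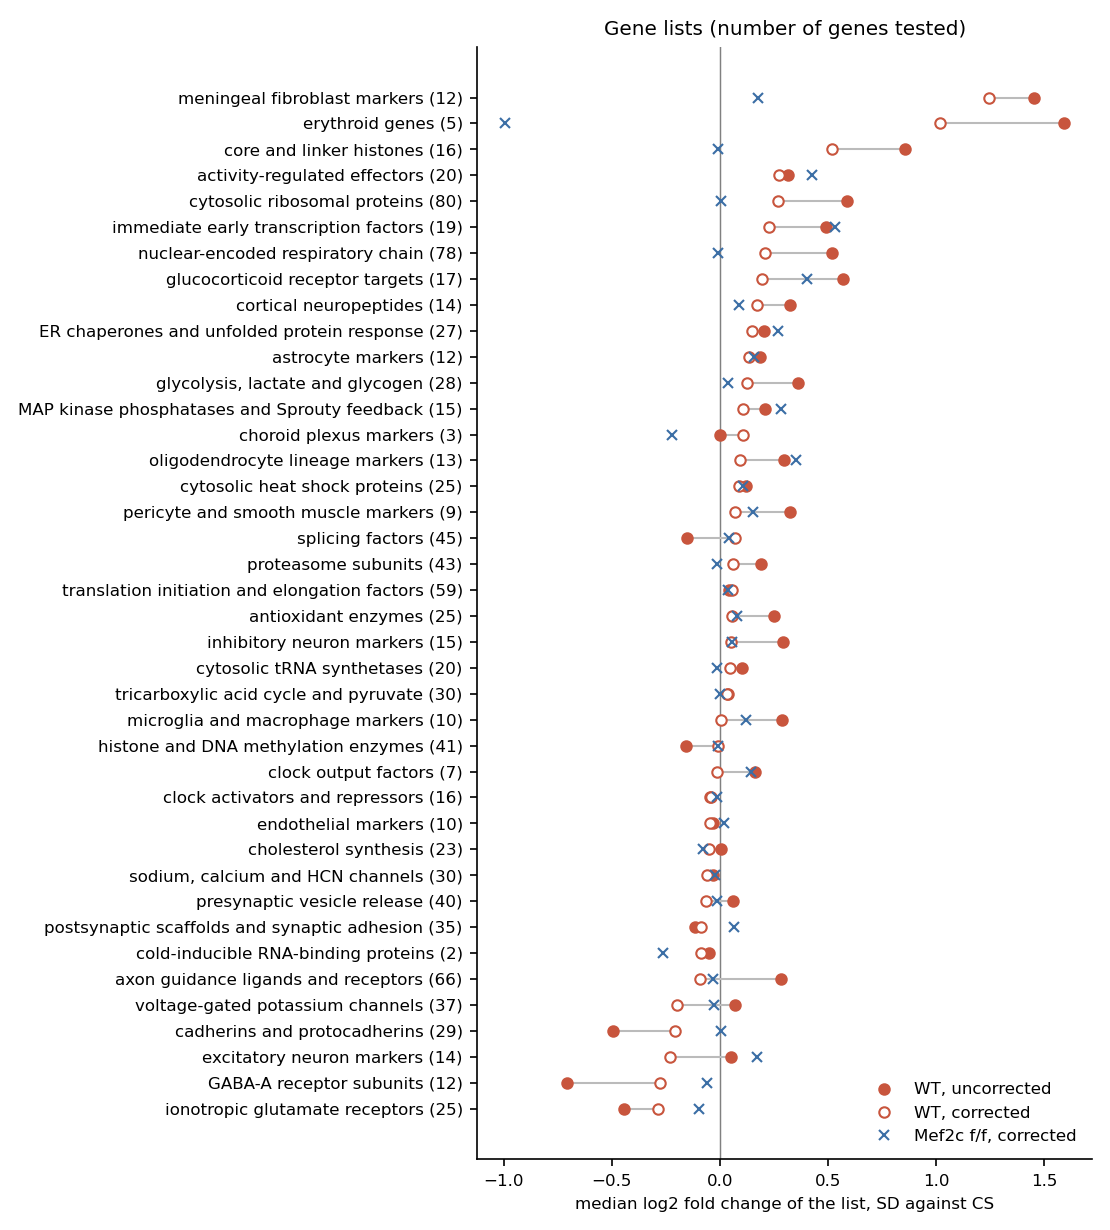
Median log2 fold change of SD against CS (x axis) for each gene list, with the number of genes tested in WT in parentheses. Filled circles are WT uncorrected, open circles WT corrected for GC content and length, and crosses Mef2c f/f corrected. The correction moves ribosomal proteins from 0.59 to 0.27 and GABA-A receptor subunits from -0.71 to -0.28.

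Markers of other cell types were followed in the same libraries. In bulk tissue, fewer cells of a type and less RNA per cell cannot be told apart. Of 12 markers of meningeal fibroblasts, 7 rose uncorrected (median 1.45) and 9 rose corrected (median 1.24), none fell, and their summed level was 50.2 to 144 CPM in CS and 146 to 188 CPM in SD, without overlap. Islr, a secreted fibroblast protein, had 2.58 to 5.48 CPM in CS and 7.83 to 15.7 CPM in SD. All 5 erythroid genes tested rose in both fits (medians 1.59 and 1.02), with a summed level of 28.3 to 118 CPM in CS and 98.0 to 286 CPM in SD, which overlapped, while their corrected median in Mef2c f/f mice was -0.99. Vim, named above, is made by fibroblasts too, and the part of these cells in its increase and in that of other genes was not tested.

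Fewer members of the other marker lists were called in 1 direction. Over all genes 45.1% were called uncorrected and 20.5% corrected. Of 14 excitatory neuron markers, 1 rose and 3 fell uncorrected, and 1 rose and 4 fell corrected (28.6% and 35.7% called). Of 15 inhibitory neuron markers, 3 rose and 1 fell uncorrected, and 1 rose and 1 fell corrected (26.7% and 13.3% called). The counts were 4 higher and 1 lower of 12 astrocyte markers, 5 and 1 of 13 oligodendrocyte lineage markers, and 2 and 1 of 10 microglia markers uncorrected, and 2 and 1, 2 and none, and 1 and 4 corrected. In the same order, 41.7%, 46.2% and 30% were called uncorrected, and 25%, 15.4% and 50% corrected. Endothelial markers gave 2 higher and 2 lower of 10 uncorrected (40% called) and none corrected. Pericyte and smooth muscle markers gave 4 higher and 1 lower of 9 uncorrected and 2 higher corrected (55.6% and 22.2% called). Of 3 choroid plexus markers, Ttr, the thyroid hormone carrier of that tissue, fell by 2.67 uncorrected and had -2.71 corrected, which was also called, with a summed level of the list between 15.6 and 194 CPM in CS and between 9.04 and 16.6 CPM in SD. These ranges overlapped, and the highest CS value came from a library far above the CS median of 25.1 CPM.

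The WT response was compared with that of Mef2c f/f mice by the difference of the log2 fold changes. In Mef2c f/f mice alone, 5 of 12410 genes (0.0403%) were DEGs uncorrected, 3 higher (0.0242%) and 2 lower (0.0161%), by limma, with 2111 at an unadjusted p of 0.05 or less. With the correction 117 of 12387 (0.945%) were DEGs, and 2515 (20.3%) had such an unadjusted p. The paper reports far more DEGs for Mef2c f/f mice at the same thresholds, found with DESeq2. DESeq2 was not run here on the Mef2c f/f libraries alone, so how far the low counts rest on the method was not tested. The WT response differed from the Mef2c f/f response for 1983 of 13106 genes (15.1%) uncorrected, 758 with a higher (5.78%) and 1225 with a lower (9.35%) change in WT, and for 281 of 12632 (2.22%) corrected, 80 higher (0.633%) and 201 lower (1.59%). Unadjusted, 2752 (21.8%) passed in the corrected values. Of the genes compared, 696 uncorrected and 245 corrected passed the filter in WT but not in Mef2c f/f mice, and their Mef2c f/f response was not tested on its own. Among genes tested in both genotypes, 1892 differed uncorrected (732 higher, 1160 lower) and 275 corrected (78 higher, 197 lower). Counts of this difference rested on single libraries and fell to 23 and 6 without Mef2c f/f SD replicate 3.

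The lists differed in how their members stood in that test. In the corrected values, all 5 erythroid genes had a higher change in WT, and 7 of 29 cadherins and protocadherins and 2 of 12 GABA-A receptor subunits had a lower one. Of 80 ribosomal protein genes 1, Rps16, had a higher change in WT. Of 19 immediate early transcription factors 2 had a lower change in WT, and none of the 26 ER genes was called. For Hspa5 the log2 fold change was 0.56 in Mef2c f/f mice as well, corrected, for Smim3 0.62, and for Dusp4 0.80, and their differences from WT had adjusted p of 0.681, 0.987 and 0.686, which does not show that the responses were equal. For Rims1 the corrected change in Mef2c f/f mice was -0.05, and the difference from WT had an adjusted p of 0.0151. Rorb, a nuclear receptor of layer 4 neurons, fell by 0.45 corrected in WT and had 0.29 in Mef2c f/f mice, with an adjusted p of 0.014 for the difference.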

How the data were processed

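Stranded libraries of polyadenylated RNA were sequenced, and reads were trimmed with Trimmomatic, aligned to mm10 with STAR and counted per gene with HTSeq from unique alignments. The authors deposited the values as CPM (edgeR) in 1 table of 33 libraries, and the annotation release is not given in the sources used here.

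Every deposited CPM value was within 0.01 of a whole number of reads, which gave the depth. CPM was rescaled by median-of-ratios factors over 11570 genes with at least 1 CPM in all 33 libraries. WT CS and WT SD were compared with limma 3.58.1 in R 4.3.3 (eBayes with trend) on log2(rescaled CPM + 0.5), which understates fold changes of low genes. For the correction, each library's log2 deviations were fitted on natural splines of GC content (5 degrees of freedom) and log10 length (4) of the longest transcript per gene, and the trend was subtracted. GENCODE M21 (GRCm38, the assembly called mm10) gave these for 19471 of 21565 genes, 241 of them by an older symbol. WT and Mef2c f/f responses were set against each other by an interaction contrast in limma, called at an adjusted p of 0.05 or less. edgeR 4.0.16 and DESeq2 1.42.0 on recovered reads were alternatives. Scripts were tested on simulated data.

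Gene lists and members were chosen with earlier results of these data known. The rule for named genes had 6 parts. Among genes called in both fits without overlap it took, per direction, the 5 with the largest corrected statistic, the 5 strongest with a change of 0.3 to 0.6 and the 5 with the highest mean CPM. It added up to 3 called in opposite directions, the 3 strongest called with the correction alone, and up to 4 DEGs per gene list with any member whose role the text needed. Some genes that the rule took are not reported here. The labels do not say whether equal replicate numbers pair CS and SD libraries. The correlation of same-numbered libraries ranged from -0.33 to 0.55, too mixed to decide it, and the libraries were treated as unpaired.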

Additional observations from a re-analysis of the deposited data

Results flagged for a closer look

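A sample far from the rest of its group was found in 15 of the 76 groups of values examined, where chance gives about 1 in 20 for independent groups, which these are not, since they reuse the same 13 libraries. In 12 of the 15 the sample was CS replicate 2. It had the GC slope of -0.852 already described. It was the highest CS library, apart from the rest, for Nav3 (2970 CPM), Etl4 (1521 CPM), Pak7 (889 CPM), Ptprd (12475 CPM), Kcnip4 (10870 CPM), Pcdh9 (9311 CPM), Nrxn3 (6875 CPM), Erc1 (219 CPM) and Phka2 (87.2 CPM), and the lowest for Mdh2 (57.5 CPM) and Dctpp1 (2.52 CPM). CS replicate 4 stood apart for Ptpn14 (10.9 CPM). In SD, replicate 9 was highest for Bach1 (20.03 CPM) and replicate 2 for Cct7 (179 CPM).

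The corrected response of WT differed from that of Mef2c f/f mice (limma, Benjamini-Hochberg adjusted) for 14 of the 36 genes that the first 5 parts of the naming rule took and that were tested in both genotypes. Over all genes 281 of 12632 (2.22%) differed. The 36 were chosen by their WT values, which also enter the difference, so their share does not measure how far the genotypes differ. WT had the lower change for Arhgap44 (difference of -0.46 on the log2 scale, adjusted p = 0.041), Erc1 (-0.56, 0.015), Frmpd3 (-0.52, 0.0217), Nav3 (-0.72, 0.0258), Pak7 (-0.77, 0.0312), Pcdh9 (-0.63, 0.0408), Phka2 (-0.44, 0.0409), Ptprd (-0.70, 0.0269) and Slc24a3 (-0.83, 0.0159). WT had the higher change for Bach1 (0.47, 0.0482), Cbs (0.76, 0.015), Pnrc2 (0.38, 0.041), Ptpn14 (0.94, 0.0241) and Vim (1.17, 0.00347). The number of such differences over all genes fell to 6 without Mef2c f/f SD replicate 3.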

How the results depend on the processing

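The GC slope kept its direction and its side of 0.05 under all 18 alternatives, and ranged from 0.382 to 0.548 when single libraries were left out. Uncorrected DEGs ranged from 4509 (without CS replicate 2) to 6411 and corrected DEGs from 1886 to 3217 in the same exercise. Correcting for transcript length alone gave 4978 DEGs. Other corrected counts, apart from that with the replicate block, stayed within 1.5 times 2550, between 1762 with span added and 3665 with no filter on low values. The genes called changed more than these totals. Of the 2550, 1307 were also called with span added, and 1660 when quantile normalization preceded the correction. CPM as deposited moved the median of all genes from 0.04 to 0.30, with 6106 higher and 801 lower DEGs. Quantile normalization gave 2316 higher of 4983 DEGs, and a minimum of 5 CPM in every library 1685 higher of 4095. A replicate block over the shared numbers, which the labels do not describe as pairs, gave 287 uncorrected and 1035 corrected DEGs. CS replicates 1 and 3 correlated best with their own number and the others did not. Differences between WT and Mef2c f/f responses ranged from 23 (without Mef2c f/f SD replicate 3) to 3300 (without CS replicate 6) uncorrected and from 6 to 542 (without CS replicate 5) corrected, and quantile normalization gave 158 corrected.

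Some values turned direction, and the cause was not tested. Medians became 0.16 with CPM as deposited and 0.055 with quantile normalization (0.10 corrected) for postsynaptic scaffolds, 0.12 with CPM as deposited for methylation enzymes, and -0.17 with at least 5 CPM, 0.25 with length alone (corrected) and 0.0090 with span (corrected) for axon guidance. Quantile normalization turned Nrxn3 (0.12, corrected 0.24), Pcdh9 (0.036, corrected 0.33) and the corrected values of Cacna2d1 (0.033), Gria3 (0.021), Kcnip4 (0.21), Lrrtm4 (0.11), Ptprd (0.21) and Syt1 (0.18). Corrected values also turned for Nrxn3 with span (0.014), Cacng8 (0.16) and Pnrc2 (-0.11) with length alone, Frmpd3 with mean GC content over transcripts (0.010), and Rps15 with no filter (0.020) or GC content alone (0.0012). Further calls lost when single libraries were left out were, uncorrected, those of Bach1 and Tef (0.26 without SD replicate 9 and 0.29 without CS replicate 2 at the lowest) and, corrected, those of Dctpp1, Luc7l2, Crh, Farsa and Pnoc.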
